A study of Homo sapiens with 12 samples.

Results

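The genes of RNA polymerase I and of abundant nucleolar proteins were followed across all 4 groups of the series. They were taken by symbol from the gene count table, and all 10 symbols, POLR1A, POLR1B, POLR1C, POLR1D, POLR1E, UBTF, RRN3, NCL, NPM1 and NOLC1, were found among its 19447. Messenger RNA was sequenced in 12 libraries, with 3 for each group. K562 is a human chronic myeloid leukemia line that carries BCR-ABL, and the group K562 was untreated. K562+L was the same line given 6 µM lycorine, an alkaloid of Amaryllidaceae plants. K562/IM was the line that the study made from K562 by stepwise exposure to imatinib (IM) and kept in 5 µM of it, so that every K562/IM library comes from a single derived line. K562/IM+L carried the label of the resistant line given 6 µM lycorine. How long the cells were exposed before sequencing is not given in the sources used here, nor whether the libraries of a group came from separate cultures, so that p-values measure the spread between these libraries, which may be technical.

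RNA polymerase I transcribes the ribosomal RNA precursor from repeated genes inside the nucleolus. UBTF binds and opens the ribosomal DNA, the SL1 complex (TBP with TAF1 proteins) recognises the promoter, and RRN3 links the polymerase to SL1 in the initiation complex. Growth signals and MYC are known to raise this output in leukemia cells. Nucleolin, nucleophosmin and NOLC1, encoded by NCL, NPM1 and NOLC1, then take part in folding, modifying and exporting the new ribosomal particles. The libraries were made from polyadenylated RNA, so that these values describe the messages for the machinery and not ribosomal RNA itself.

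Total counts ran from 75093844 to 107344598 per library. Levels are given as CPM, counts relative to a common library size set by edgeR's TMM method, which compares shares of the messenger pool, so that a change common to all messages or in cell number cannot be told apart from none. All 10 K562 markers of the erythroid leukemia type were present in every group. Their summed level was 5420 to 8050 CPM in K562, 3850 to 4520 in K562+L, 2500 to 2720 in K562/IM, and the K562/IM+L group had 31700 to 45200. This sum came mainly from the globin genes HBG1 and HBG2, and single markers did not all follow it. HBE1 had a mean of 97.6 CPM in K562 and 544 in K562/IM. GATA1 had means of 230 CPM in K562, 206 in K562+L, 196 in K562/IM and 250 in K562/IM+L. Of 15 markers of lymphoid, monocyte, epithelial and fibroblast cells, 10 to 13 stayed under 1 CPM in every library of a group, and their sum of 162 to 246 CPM came mainly from LYZ and EPCAM. The B cell marker MS4A1 was at 0 in all 12 libraries, and the T cell marker CD3D had a mean of 22.0 CPM in K562/IM.

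The group labelled K562/IM+L lay nearer to K562 than to K562/IM, the line its label names. On a scale set by the 1272 genes with an absolute log2 fold change over 2 between K562/IM and K562, the 3 labelled libraries lay at median positions of 0.121, 0.116 and 0.176, where K562 is 0 and K562/IM is 1. The grouping was left as deposited, these are called the labelled libraries, and they were compared with K562/IM and also with K562. The comparisons of K562+L and of K562/IM with K562 do not contain them.

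Scaled by the length of all annotated exons, the nucleolar proteins lay far above the polymerase. In K562, NPM1 had a mean of 796 CPM per kb, NCL 225 and NOLC1 119. POLR1E followed with 50.4, UBTF with 24.7 and POLR1C with 19.3. The lowest levels per kb were those of POLR1B at 14.9, POLR1A at 14.0, POLR1D at 8.62 and RRN3 at 8.22. POLR1B and POLR1A did not separate beyond their SDs of 1.03 and 0.918, nor did POLR1D and RRN3 beyond theirs of 0.597 and 3.65, while POLR1A lay above POLR1D by more than both SDs. Divided by the longest transcript instead, NPM1, NCL, NOLC1 and POLR1E kept their order at the top, while POLR1C, at 43.8 CPM per kb, stood above UBTF, at 34.6, and POLR1D, at 21.1, above POLR1B, at 18.6.

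**Figure D1:**
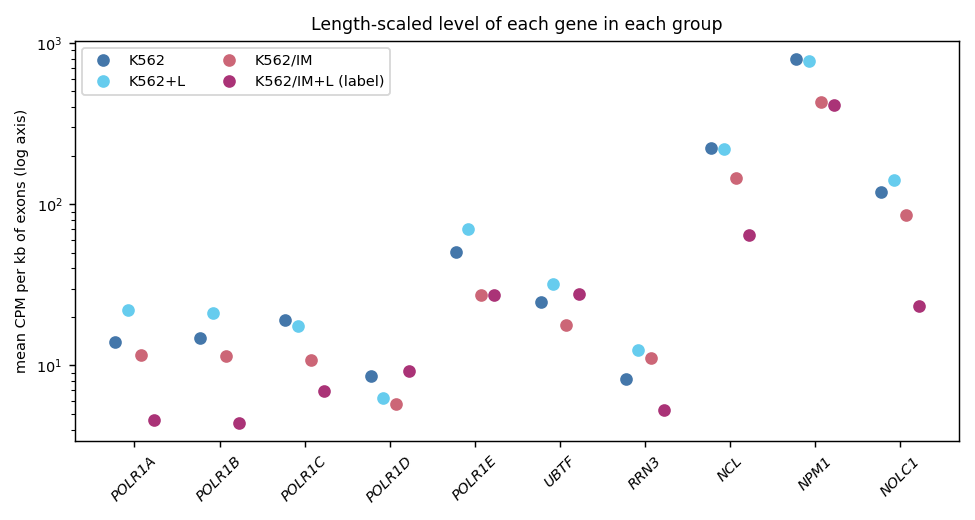
Mean level of each gene in CPM per kb of annotated exons, on a log axis, with a point for each group (3 libraries each). NPM1 lies highest in all 4 groups, at 414 to 796 CPM per kb, and the points of NOLC1 spread from 23.5 in the labelled libraries to 141 in K562+L.

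Sequence before the start site is shown for 4 genes that moved apart in the labelled libraries against K562/IM, as described further on: POLR1B and NCL were lower there, POLR1D and UBTF higher. Sequences are RefSeq's on GRCh38.p14, 5′ to 3′ on the strand of the gene, and hold the longest run in the 250 bases before the RefSeq start that GENCODE release 29 annotates in no exon. Capitals mark GC boxes, the letters GGGCGG on either strand. The stretches are chr2:112541786-112541914 on the plus strand, chr13:27620493-27620741 on the plus strand, chr17:44220964-44221132 on the minus strand and chr2:231464595-231464734 on the minus strand. Those of POLR1B and POLR1D end at the base before the annotated gene, while those of UBTF and NCL lie inside the annotated gene but in none of its exons, since GENCODE places some transcript starts further upstream.
POLR1B: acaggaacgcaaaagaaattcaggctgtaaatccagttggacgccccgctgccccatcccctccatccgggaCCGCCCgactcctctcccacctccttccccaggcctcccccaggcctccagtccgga
POLR1D: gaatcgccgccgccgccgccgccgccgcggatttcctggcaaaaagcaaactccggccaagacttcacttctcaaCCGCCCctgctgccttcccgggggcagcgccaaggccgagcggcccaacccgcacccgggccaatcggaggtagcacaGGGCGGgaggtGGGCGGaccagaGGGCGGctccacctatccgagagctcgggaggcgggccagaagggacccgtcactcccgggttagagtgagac
UBTF: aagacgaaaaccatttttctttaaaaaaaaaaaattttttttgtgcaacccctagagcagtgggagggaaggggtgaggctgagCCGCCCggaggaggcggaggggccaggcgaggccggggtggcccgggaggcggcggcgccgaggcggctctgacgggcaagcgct
NCL: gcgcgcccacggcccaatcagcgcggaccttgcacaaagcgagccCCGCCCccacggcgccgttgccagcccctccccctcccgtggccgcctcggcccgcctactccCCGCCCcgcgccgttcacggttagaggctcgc
All 4 stretches are rich in G and C, with 64.3% in POLR1B, 69.9% in POLR1D, 61.5% in UBTF and 77.1% in NCL. The stretches hold 1 GC box in POLR1B, 4 in POLR1D, 1 in UBTF and 2 in NCL. Over the whole 250 bases, with overlapping matches counted, the numbers were 1, 4 and 2 in POLR1B, POLR1D and NCL and 7 in UBTF. Of the 10 genes, 8 had an entry, all except POLR1E and NOLC1, and 5 of these held a GC box against 42.3% of 27305 promoters. The E-box CACGTG, a sequence that MYC and its partner MAX bind, was in 0 of the 8 and in 6.49% of all promoters. It was in 4 of the 18 entries found for a list of other nucleolar proteins. The ETS motif CCGGAAGT was in POLR1C alone, against 3.64% of all promoters. A match is a run of letters and not a site.

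POLR1A and POLR1B encode the 2 largest subunits, which form the catalytic centre. Both genes lie on chromosome 2 of GRCh38, POLR1A from 86020216 to 86106155 on the minus strand and POLR1B from 112541915 to 112577150 on the plus strand. POLR1A stood at 202, 190 and 177 CPM in K562, at 318, 260 and 323 in K562+L, at 159, 147 and 166 in K562/IM and at 56.6, 53.6 and 75.7 in the labelled libraries. POLR1B stood at 100, 94.0 and 87.5 CPM in K562, at 133, 132 and 136 in K562+L, at 73.2, 70.3 and 72.5 in K562/IM and at 26.0, 27.8 and 29.8 in the labelled libraries. For both genes the 4 groups took the same order with no overlap, from the labelled libraries through K562/IM and K562 to K562+L.

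POLR1C and POLR1D encode the assembly pair that RNA polymerase I shares with RNA polymerase III. POLR1C lies on chromosome 6 from 43509702 to 43562419, and 4 genes on the opposite strand, LRRC73, YIPF3, XPO5 and an antisense RNA, overlap its annotated exons. Whether strand was used in counting is not given in the sources used here, so that reads of these genes cannot be told apart. POLR1C stood at 98.5, 107 and 116 CPM in K562, at 96.2, 103 and 94.0 in K562+L, at 60.9, 59.9 and 58.6 in K562/IM and at 40.8, 40.1 and 34.8 in the labelled libraries. POLR1D, on chromosome 13 from 27620742 to 27744237, stood at 92.0, 93.7 and 104 CPM in K562 and at 69.4, 72.7 and 69.0 in K562+L. It held 63.2, 65.5 and 64.7 in K562/IM and 110, 112 and 90.5 in the labelled libraries. The partners thus ranked the groups differently, with the labelled libraries lowest for POLR1C and overlapping K562 for POLR1D.

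POLR1E encodes a subunit of the peripheral heterodimer that acts in initiation and elongation, and lies on chromosome 9 from 37485935 to 37503697. It stood at 120, 130 and 129 CPM in K562, at 180, 171 and 178 in K562+L, at 69.3, 66.5 and 69.0 in K562/IM and at 70.9, 67.2 and 67.1 in the labelled libraries. K562+L lay above K562, and the other groups lay below both and overlapped each other.

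UBTF, on chromosome 17 from 44205033 to 44221626, is overlapped in its exons by 2 antisense RNAs. It stood at 168, 169 and 181 CPM in K562, at 223, 229 and 222 in K562+L and at 122, 123 and 129 in K562/IM. The labelled libraries held 231, 207 and 145 CPM, and their highest was 1.59 times their lowest, against 1.08, 1.03 and 1.05 times in K562, K562+L and K562/IM. RRN3, on chromosome 16 from 15060022 to 15094317, was the least steady gene, and GENCODE names 3 pseudogenes of it, between which the counting may have split reads. It stood at 26.7, 24.1 and 51.6 CPM in K562, at 79.3, 34.9 and 40.5 in K562+L, at 72.8, 33.5 and 33.4 in K562/IM and at 26.8, 7.20 and 32.4 in the labelled libraries. The highest library was 2.14, 2.27, 2.18 and 4.49 times the lowest in these groups, and the ranges of K562, K562+L and K562/IM overlapped.

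NCL encodes nucleolin, which binds nascent ribosomal RNA, and lies on chromosome 2 from 231453531 to 231483641 with 3 small nucleolar RNA genes inside it, SNORA75, SNORD20 and SNORD82. It stood at 1540, 1570 and 1560 CPM in K562, at 1460, 1480 and 1630 in K562+L, at 1010, 998 and 1010 in K562/IM and at 459, 438 and 436 in the labelled libraries. NPM1 encodes nucleophosmin, a histone and ribosome chaperone, and lies on chromosome 5 from 171387116 to 171411137. GENCODE names 45 pseudogenes of NPM1, so that its counts are uncertain where reads were split between copies. It stood at 2950, 3070 and 3130 CPM in K562, at 2840, 2950 and 3100 in K562+L, at 1590, 1690 and 1630 in K562/IM and at 1630, 1640 and 1480 in the labelled libraries. NOLC1, on chromosome 10 from 102152176 to 102163871, encodes a phosphoprotein that accompanies small nucleolar ribonucleoproteins. Its values were 477, 471 and 466 CPM in K562, 561, 538 and 583 in K562+L, 343, 328 and 349 in K562/IM and 97.0, 85.6 and 97.7 in the labelled libraries. NCL and NOLC1 fell in 2 steps from K562 to K562/IM to the labelled libraries, whereas NPM1 took only the first.

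**Figure D2:**
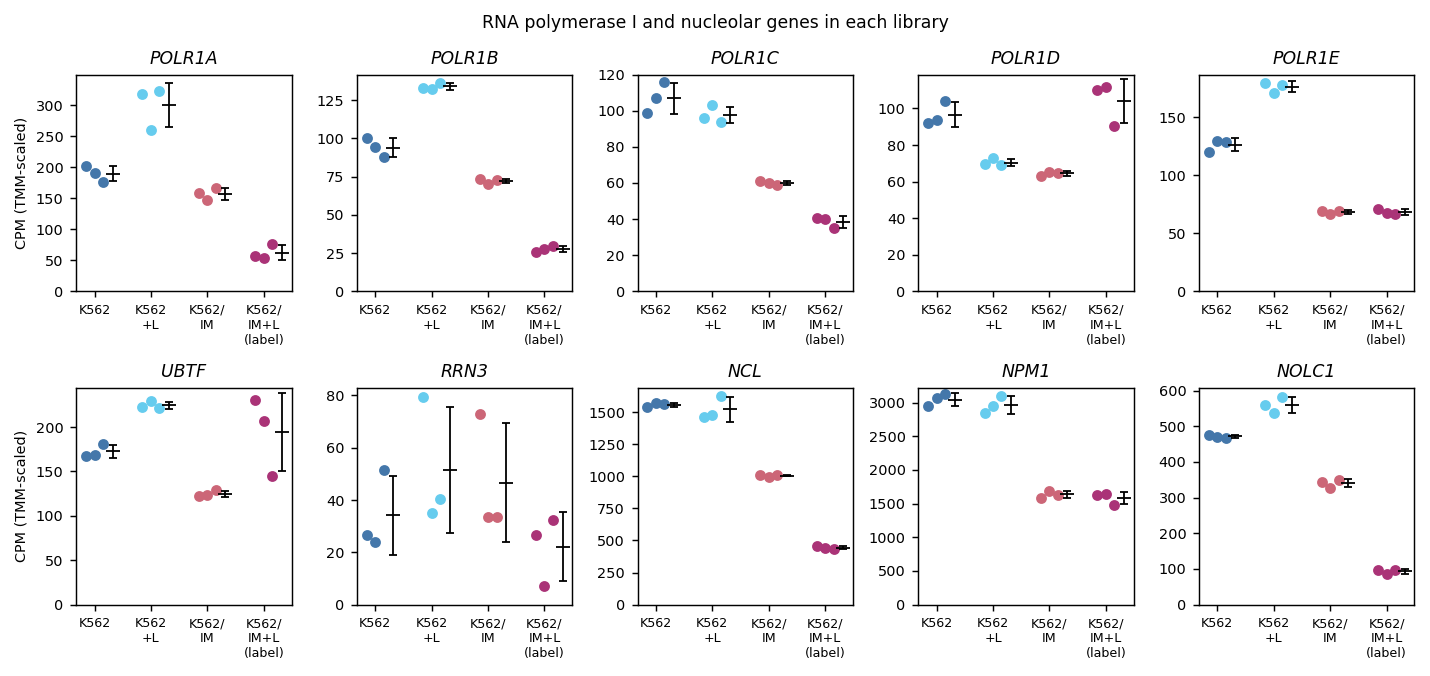
Level of each of the 10 genes in CPM (linear axes from 0) in each of the 12 libraries (points), with the mean and SD of each group of 3 in black. POLR1A, POLR1B and NOLC1 show 4 separate levels, POLR1D and UBTF are high again in the labelled libraries, and RRN3 scatters within every group.

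Lycorine in the parental line moved the polymerase genes in different directions. Against K562, POLR1A, POLR1B, POLR1E, UBTF and NOLC1 were higher in K562+L and POLR1D was lower, by 1.19- to 1.58-fold. The abundant nucleolar messages NCL and NPM1 changed by less than their error. At an adjusted p under 0.05 (edgeR's quasi-likelihood test, Benjamini-Hochberg over all 12927 genes tested), 5 of the 10 genes were higher and 1 was lower. Of all genes tested, 18.2% were higher and 19.0% lower. None of the 10 had an absolute log2 fold change over 1 as well, here called the fold threshold, which 6.39% of all genes passed.

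The largest rise was that of POLR1A. Its mean was 190 ± 12.4 CPM (SD, n = 3) in K562 and 300 ± 34.8 CPM (SD, n = 3) in K562+L, which on the log2 scale is a change of 0.66 (SE 0.11, edgeR adjusted p = 0.00315). POLR1B rose by 0.51 on the log2 scale (SE 0.085, adjusted p = 0.00369), POLR1E by 0.48 (SE 0.079, adjusted p = 0.00349) and UBTF by 0.38 (SE 0.076, adjusted p = 0.00730). POLR1D had a mean of 96.7 ± 6.69 CPM (SD, n = 3) in K562 and of 70.4 ± 2.01 CPM (SD, n = 3) in K562+L, which on the log2 scale is a change of -0.46 (SE 0.086, adjusted p = 0.00582). The rise of NOLC1, 0.25 (SE 0.070, adjusted p = 0.0255), was not called without K562 replicate 2 (adjusted p = 0.106), without K562+L replicate 1 (adjusted p = 0.0704) or without K562+L replicate 3 (adjusted p = 0.105). POLR1C had -0.13 (SE 0.092), NCL -0.033 (SE 0.070), NPM1 -0.041 (SE 0.064) and RRN3 0.59 (SE 0.37), with adjusted p from 0.241 to 0.739. In this comparison long transcripts stood higher than short ones throughout the transcriptome. The median log2 fold change was -0.22 in the tertile of genes whose longest transcript is shortest (2713 bases or less) and 0.19 in the tertile where it is longest (4639 bases or more). It was 0.11 in the tertile poorest in G and C and -0.15 in the richest, and the part of base composition in these values was not tested. Set against the 500 genes nearest in transcript length, an alternative added after the data were seen, POLR1A, with 12749 bases, had 0.30 in place of 0.66, and POLR1E, with 2229 bases, had 0.65 in place of 0.48. The 6 called genes kept their direction.

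K562/IM carried lower levels of nearly the whole group than K562. In the resistant line 9 of the 10 genes were lower, and RRN3 was not distinguishable from its spread. The decreases were modest, from 1.21-fold in POLR1A to 1.86-fold in NPM1. Among all 13406 genes tested, 27.1% were lower and 30.1% higher at the same threshold. None of the 10 passed the fold threshold of 1 on the log2 scale as well, which 19.1% of all genes passed.

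NPM1 had a mean of 3046 ± 90.5 CPM (SD, n = 3) in K562 and of 1637 ± 53.1 CPM (SD, n = 3) in K562/IM, which on the log2 scale is a change of -0.90 (SE 0.057, adjusted p = 1.27e-05). POLR1E had -0.89 (SE 0.069, adjusted p = 3.44e-05), POLR1C -0.84 (SE 0.080, adjusted p = 9.46e-05) and NCL -0.63 (SE 0.053, adjusted p = 5.20e-05). POLR1D (-0.58), NOLC1 (-0.47), UBTF (-0.47) and POLR1B (-0.38) followed, with adjusted p from 4.17e-04 to 0.00334. POLR1A had the smallest decrease, -0.27 (SE 0.081, adjusted p = 0.0221), and was not called without K562 replicate 2 (adjusted p = 0.0729), K562/IM replicate 1 (adjusted p = 0.0693) or K562/IM replicate 2 (adjusted p = 0.0890). RRN3 had 0.45 (SE 0.38, adjusted p = 0.351) and went to -0.031 without K562/IM replicate 1, its highest library. Long transcripts again stood higher, with medians of -0.20 and 0.25 in the shortest and longest tertiles of genes. Relative to genes of like transcript length the 9 values drew together, from -0.55 in NOLC1 to -0.75 in POLR1E, with -0.71 for POLR1A. Scaling by total counts alone raised the median of all genes by 0.19, and POLR1A (-0.083, adjusted p = 0.452) and POLR1B (-0.20, adjusted p = 0.0821) were then not called.

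**Figure D3:**
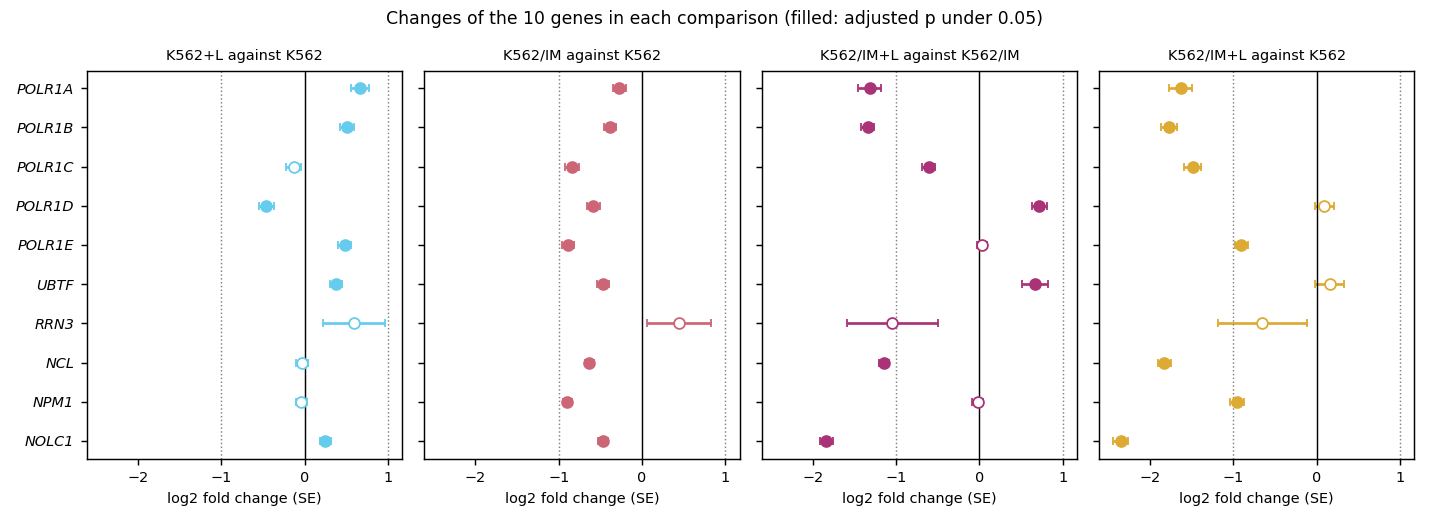
Log2 fold change of each gene in the 4 pairwise comparisons with its standard error as a bar, filled where the edgeR adjusted p was under 0.05, with dotted lines at a log2 fold change of 1 in either direction. The 9 filled points of K562/IM against K562 all lie between 0 and -0.90, while the comparisons of the labelled libraries reach -2.36 for NOLC1.

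Against K562/IM, the labelled libraries held less of the catalytic subunits and of NCL and NOLC1, and more POLR1D and UBTF. NOLC1 was lower by 3.57-fold, POLR1B by 2.53-fold, POLR1A by 2.49-fold, NCL by 2.22-fold and POLR1C by 1.52-fold. POLR1D was higher by 1.64-fold and UBTF by 1.59-fold. At an adjusted p under 0.05, 5 of the 10 genes were lower and 2 higher, where 33.6% and 33.2% of all 13727 genes were. The first 4 of the lower genes also passed the fold threshold, which 28.5% of all genes passed. POLR1E and NPM1 overlapped their K562/IM levels and were not called.

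NOLC1 had a mean of 340 ± 11.1 CPM (SD, n = 3) in K562/IM and of 93.4 ± 6.82 CPM (SD, n = 3) in the labelled libraries, which on the log2 scale is a change of -1.84 (SE 0.080, adjusted p = 1.80e-06). POLR1B had -1.34 (SE 0.077, adjusted p = 6.46e-06), POLR1A -1.32 (SE 0.14, adjusted p = 1.29e-04), NCL -1.15 (SE 0.059, adjusted p = 3.75e-06) and POLR1C -0.61 (SE 0.078, adjusted p = 3.42e-04). POLR1D rose by 0.72 (SE 0.090, adjusted p = 3.06e-04) and UBTF by 0.66 (SE 0.15, adjusted p = 0.00655). RRN3 had -1.04 (SE 0.54, adjusted p = 0.126), although its libraries did not overlap. POLR1E had 0.029 (SE 0.063) and NPM1 -0.020 (SE 0.067). Here the relation to length ran the other way, with a median of 0.26 in the shortest tertile of genes and -0.26 in the longest. Relative to genes of like length POLR1A had -0.87 in place of -1.32, under the fold threshold, while NOLC1 had -1.81, POLR1B -1.20 and NCL -1.02. The summed level of the erythroid markers moved with this comparison, as given above, and its part in these values was not tested.

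Against K562, which leaves K562/IM out, the labelled libraries were lower in 7 of the 10 genes and higher in none. Of all 13307 genes tested 27.8% were lower and 28.2% higher. NOLC1 was 5.12-fold lower, at -2.36 on the log2 scale (SE 0.087, adjusted p = 7.93e-06), and NCL 3.55-fold lower, with -1.83 (SE 0.075, adjusted p = 7.96e-06). POLR1B, POLR1A and POLR1C had -1.77, -1.64 and -1.49, so that 5 genes passed the fold threshold, which 23.8% of all genes passed. NPM1 (-0.96) and POLR1E (-0.91) were lower by less. POLR1D had 0.088 (SE 0.12, adjusted p = 0.542) and UBTF 0.15 (SE 0.17, adjusted p = 0.474). UBTF was called as higher without replicate 3 of the labelled libraries (0.33, adjusted p = 0.0210). The relation to length was weaker in this comparison, with medians of 0.079 and -0.030 in the shortest and longest tertiles. The tertile of genes richest in G and C had a median of 0.30 and the poorest -0.18. Among the 10 genes the longest transcript of UBTF is richest, at 55.0% G and C, and those of RRN3 (41.5%) and NPM1 (43.3%) are poorest. The same medians were 0.25 and -0.23 for the labelled libraries against K562/IM, and the part of base composition in these values was not tested.

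The difference between the lycorine effects, K562/IM minus K562 as labelled, was tested over all 12 libraries. It was lower in 6 of the 10 genes and higher in 1, against 31.7% and 29.9% of the 13995 genes tested. NOLC1 differed by -2.11 (SE 0.093, adjusted p = 8.13e-09), POLR1A by -2.0 (SE 0.18, adjusted p = 2.46e-06) and POLR1B by -1.88 (SE 0.10, adjusted p = 3.78e-08), since each was higher in K562+L and lower in the labelled libraries than in its control. POLR1D differed by 1.15 (SE 0.12, adjusted p = 7.87e-06), lower with lycorine in K562 and higher in the labelled libraries. UBTF was higher in both, and its difference of 0.26 (SE 0.18, adjusted p = 0.231) did not pass, although it did without replicate 3 of the labelled libraries (0.44, adjusted p = 0.00169). NPM1 differed by -0.0019 (SE 0.085). The comparisons share control libraries, K562 in 3 of them and K562/IM in 2, so that their values are not independent of each other.

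Lists of related genes, written from general knowledge with earlier results of these data known, were counted in the same fits. Their genes were not set against genes of like transcript length, so that the part of length in their values was not tested. In the list of 23 other nucleolar proteins, which holds the enzymes and scaffolds of ribosomal RNA modification and of large-subunit assembly, 22 genes were lower in K562/IM than in K562 and none was higher, against 27.1% and 30.1% of all genes, with a median log2 fold change of -0.74 against 0.042 over all genes tested. GAR1 of the pseudouridine-forming H/ACA particles had -1.26 (SE 0.076), NIFK, a nucleolar partner of the proliferation marker Ki-67, had -1.08, and PES1 and BOP1 of the large-subunit assembly complex had -1.10 and -1.07. Only TCOF1, which brings the polymerase to ribosomal DNA, was not called (-0.093, adjusted p = 0.294). In the labelled libraries 19 of the 23 were lower than in K562/IM, against 33.6% of all genes, with a median of -0.82 against -0.0069 over all genes, and all 23 were lower than in K562, against 27.8%, 19 of them by more than the fold threshold. DDX21, an RNA helicase that couples polymerase I to ribosomal RNA processing, stood at 858, 751 and 625 CPM in K562 and at 126, 125 and 176 in the labelled libraries, which on the log2 scale is a change of -2.41 (SE 0.18, adjusted p = 4.6e-05).

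In K562+L 10 genes of this list were higher, 3 lower and 10 not called, where 18.2% of all genes were higher and 19.0% lower. DDX21 rose by 0.81 (SE 0.12), NOP58 by 0.66, RRP1B by 0.60 and NOP2, an RNA methyltransferase, by 0.56. The 3 lower genes were NOP10 (-0.72) and NHP2 (-0.49), small proteins of the H/ACA particles, and FBL (-0.50), the methyltransferase of the box C/D particles. The lower count was 0 without K562+L replicate 1 and 1 without K562+L replicate 3.

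Of 9 other genes of polymerase I transcription, POLR1G moved furthest. It encodes the partner of POLR1E, and stood at 49.0, 51.4 and 50.6 CPM in K562, at 62.1, 56.7 and 50.9 in K562+L, at 21.0, 21.7 and 18.7 in K562/IM and at 5.30, 6.81 and 5.48 in the labelled libraries. Against K562, POLR1G changed on the log2 scale by -1.30 (SE 0.084, adjusted p = 1.34e-05) in K562/IM and by -3.12 (SE 0.13, adjusted p = 8.20e-06) in the labelled libraries. With K562/IM as the reference, POLR1F (-1.13) and TAF1A of SL1 (-0.91) were lower in the labelled libraries, whereas POLR1H (0.36) and TAF1B (0.35) were higher. In that comparison 4 of the 9 were lower and 2 higher, near the shares of 33.6% and 33.2% over all genes, and 1 was higher without either of K562/IM replicates 1 and 2 or labelled replicates 1 and 2. Scaled by total counts alone, 7 were lower and 0 higher there, and the shares of all genes with that scaling were not counted. The table lists POLR1F, POLR1G and POLR1H by their older symbols TWISTNB, CD3EAP and ZNRD1. In K562+L, where 18.2% of all genes were higher and 19.0% lower, 1 of the 9 was higher, but none without K562 replicate 2 or 3 or any of the K562+L replicates. There 1 was lower, but none without K562+L replicate 1 or 3. In K562/IM 4 were lower, against 27.1% of all genes. Without K562 replicate 2, or without any of the K562/IM replicates, 2 were lower in K562/IM. TAF1C and TTF1 passed in no comparison.

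The 5 small subunits common to all 3 nuclear polymerases were lower in 2 of 5 cases in K562+L, against 19.0% of all genes and with a median of -0.40, and in 4 of 5 in K562/IM, against 27.1% and with a median of -0.62. POLR2L had the largest decrease, -1.24 (SE 0.16, adjusted p = 4.57e-04), in K562/IM. In the labelled libraries against K562/IM POLR2L alone passed, at 0.75 and higher, where 33.2% of all genes were higher. The count in K562+L ranged from 0 to 5 across fits that left out 1 library, being 5 without K562 replicate 1, 1 without K562 replicate 3 and 0 without K562 replicate 2, K562+L replicate 1 or K562+L replicate 3.

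The 11 specific subunits of RNA polymerase III belong to the enzyme that makes transfer RNA and the small ribosomal RNA. In K562+L 5 were higher and 1 lower, against 18.2% and 19.0% of all genes, with a median of 0.31, and POLR3C had the largest rise, from 48.6 to 54.9 CPM in the K562 libraries to 123 to 126 in K562+L (1.28 on the log2 scale, SE 0.085, adjusted p = 9.89e-05). In K562/IM 8 were lower and 1 higher, against 27.1% and 30.1% of all genes, and without K562 replicate 2 or any K562/IM replicate these counts were 4 to 5 and 0. In the labelled libraries 6 were lower and 1 higher than in K562/IM, against 33.6% and 33.2% of all genes, and 10 lower and 1 higher than in K562, against 27.8% and 28.2%.

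**Figure D4:**
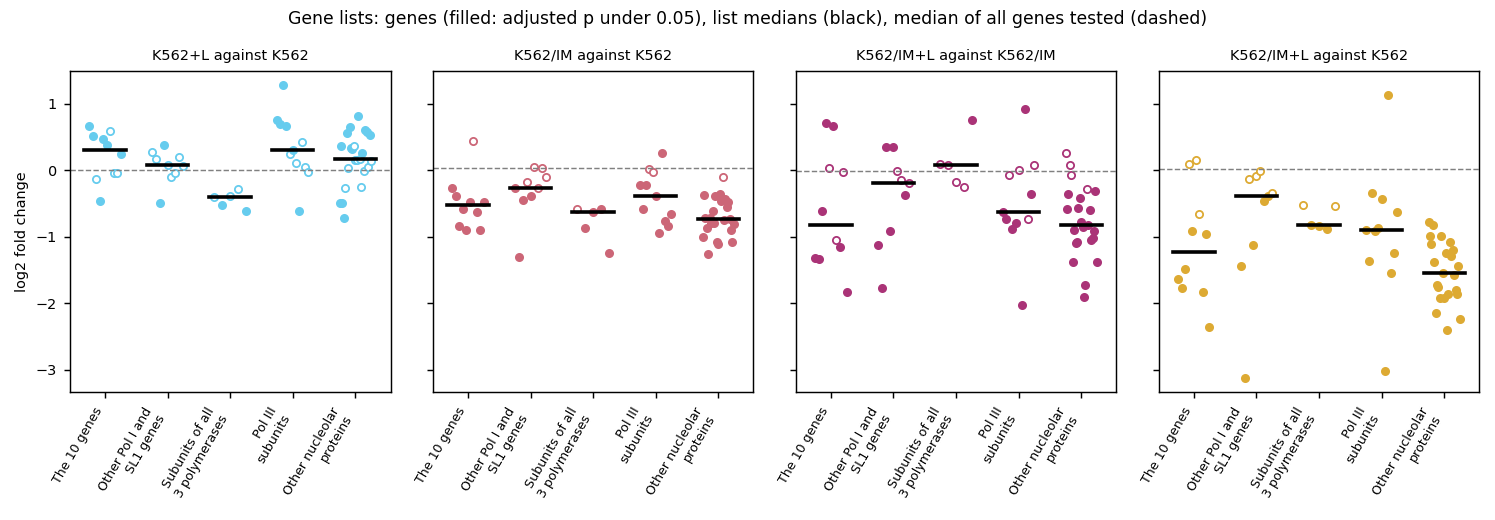
Log2 fold changes of the 10 genes and of 4 lists of related genes in each pairwise comparison (points, filled where the edgeR adjusted p was under 0.05), with the median of each list as a black bar and that of all genes tested as a dashed line. In K562/IM all list medians lie below the line, at -0.26 to -0.74, and in the labelled libraries against K562 the nucleolar list has the lowest median, -1.54.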

How the data were processed

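Poly(A) RNA of 12 libraries was sequenced by a company. The authors deposited whole-number counts per gene symbol and library, without normalization. The submitters' processing notes name hg38, FastQC, STAR, StringTie and DESeq2 without roles. The counter settings and annotation are not given in the sources used here. Small counts cluster near multiples of 4. A fragment may thus be worth about 4 counts, in which case counting noise is larger than the totals give.

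In each pairwise comparison the 6 libraries were filtered with filterByExpr (minimum count 10), scaled by TMM and tested with edgeR 4.0.16 (glmQLFit and glmQLFTest, R 4.3.3, two-sided) with Benjamini-Hochberg adjustment at 0.05. All 10 genes passed the filter in every comparison. Standard errors are the log2 fold change divided by the square root of F. The interaction used all 12 libraries. The steps were tested on simulated counts. Total counts ran from 75093844 to 107344598, and how much of the spread between libraries is counting error was not measured. Exact permutation of 3 libraries against 3 reaches no p below 0.1 and was not used. Positions and exon lengths came from GENCODE release 29 (GRCh38), and promoter sequences from RefSeq (GRCh38.p14).

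The 10 genes, the lists and the motifs were chosen with earlier results of these data known. All 10 genes are named. By the rule for the lists, genes past the adjusted p of 0.05 with an absolute log2 fold change over 1 could be named, and otherwise up to 4 a list and comparison with the smallest adjusted p. NOP10, NHP2 and FBL in K562+L, TCOF1 in K562/IM, POLR1H and TAF1B in the labelled libraries, and TAF1C and TTF1 were named outside it after their values were seen, and GC boxes were chosen likewise. Alternatives were DESeq2 1.42.0, 3 other normalizations, 2 other filters, all 12 libraries in 1 fit, the replicate number as a block, counts divided by 4, and each library left out. The labels name no batch.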

Additional observations from a re-analysis of the deposited data

Results flagged for a closer look

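The effect labelled as lycorine differed between the lines in 7 of the 10 genes, by the edgeR interaction test (adjusted p under 0.05). Of these 6 were lower and 1 higher, against 31.7% and 29.9% of the 13995 genes tested. Taken as the effect in K562/IM less that in K562, on the log2 scale, the difference was -2.11 for NOLC1, -2.0 for POLR1A, -1.88 for POLR1B, -1.14 for NCL, -0.50 for POLR1C, -0.47 for POLR1E and 1.15 for POLR1D. For POLR1A, POLR1B and NOLC1 the effects had opposite signs, called in each line, and likewise for POLR1D. The call of NOLC1 in K562+L was lost with the replicate number as a block and in some fits that left out 1 library. POLR1C and NCL were called in the labelled libraries, and POLR1E in K562+L. All 7 differences rest on the labelled libraries, which lay nearer to K562 than to K562/IM over the genes that set these lines apart. The transcriptome-wide relation to transcript length also differed between the lines, with medians of this difference of 0.43 in the shortest tertile of genes and -0.49 in the longest, and so did that to base composition, with 0.39 in the tertile richest in G and C and -0.36 in the poorest. Relative to genes of like length the 7 values were -1.94, -1.11, -1.61, -0.91, -0.62, -0.81 and 1.35 in the same order. The part of length or base composition in them was not tested further. With 3 libraries a group, no test for single outlying libraries was made.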

How the results depend on the processing

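The number of the 10 genes past an adjusted p of 0.05 stayed within 1.5 times its value under every alternative run, at 5 to 6 in K562+L, 7 to 9 in K562/IM, 7 to 8 for the labelled group against either line and 7 to 9 for the interaction. The count over all genes in K562+L against K562 was 4821, 3126 with the replicate number as a block and 2871 to 5823 across fits that left out 1 library. The replicate numbers were not taken as pairs, since 0 of the same-numbered pairs had deviations correlated above 0.1 in the 4 pairwise comparisons, and 0, 2, 3 and 1 of the 6 libraries correlated best with their own number in these comparisons. Among the pairs that only the interaction joins, K562+L and the labelled libraries had -0.00925, 0.132 and 0.15 for numbers 1, 2 and 3. Numbers 2 and 3 were thus above 0.1, while pairs of unlike number in these groups ran from -0.165 to 0.0381. Pairing between these groups was therefore not settled, and the block was run as an alternative. With the block, NOLC1 in K562+L (0.25, adjusted p = 0.106) and POLR1A in K562/IM (-0.27, adjusted p = 0.0503) were not called. RRN3 was called in the labelled libraries against K562/IM (-1.20, adjusted p = 0.0345) and in the interaction (-1.74, adjusted p = 0.0303), and no other call of the 10 genes changed. With all 12 libraries in 1 fit POLR1A in K562/IM was not called (-0.27, adjusted p = 0.0921). RRN3 in the interaction was called without K562 replicate 3 (adjusted p = 0.0376) and without replicate 3 of the labelled libraries (adjusted p = 0.0393).

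Signs turned only for values that were not called. NPM1 in the labelled libraries against K562/IM was 0.039 with upper-quartile normalization and -0.045 to 0.028 across fits leaving out 1 library. POLR1E there was -0.16 with total counts only. The interaction of NPM1 was 0.00928 with DESeq2, 0.0093 with RLE, 0.13 with upper-quartile normalization, 0.018 with at least 10 counts in every library, 0.0057 with counts divided by 4 and -0.066 to 0.043 leaving out 1 library. RRN3 in K562/IM against K562 ran from -0.031 to 0.86, and UBTF in the labelled libraries against K562 from -0.0023 to 0.33, across such fits. With total counts only, NPM1 was called lower in the labelled libraries against K562/IM (-0.21, adjusted p = 0.0101) and in the interaction (-0.19, adjusted p = 0.0259). That scaling moved the median of all genes by -0.19 in both, and upper-quartile normalization moved it by 0.15 in the labelled libraries against K562 and by 0.13 in the interaction. With total counts only, 1 of the 9 other polymerase I genes was lower in K562/IM and 1 was higher. Of the 11 polymerase III genes, 4 were then lower and 1 higher. The shares of all genes called in each direction with that scaling were not counted. The causes were not tested.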

Other observations

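The alternative subunits POLR3G and POLR3GL of RNA polymerase III moved apart. POLR3G, the form typical of stem and tumour cells, stood at 105, 86.2 and 78.3 CPM in K562, at 91.0, 100 and 102 in K562+L, at 46.7, 47.1 and 47.1 in K562/IM and at 12, 10.1 and 11.6 in the labelled libraries. POLR3GL, its widely expressed paralog, stood at 47.7, 52.0 and 55.2 CPM in K562, at 33.4, 35.5 and 32.9 in K562+L, at 60.1, 62.1 and 64.4 in K562/IM and at 121, 125 and 99.8 in the labelled libraries. In CPM, POLR3G was above POLR3GL in every library of K562 and K562+L and below it in every library of the other groups. These levels were not scaled by exon length, so that this order does not compare the amounts of the paralogs' transcripts. Against K562, the labelled libraries had log2 fold changes of -3.02 (SE 0.14) for POLR3G and 1.14 (SE 0.12) for POLR3GL, and K562/IM had -0.94 (SE 0.11) and 0.27 (SE 0.080), all past an adjusted p of 0.05. The POLR3GL call in K562/IM was lost without K562 replicate 2 or any K562/IM replicate. These paralogs were singled out after their values were seen.

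The genes outside the lists whose centred group means lay closest to the mean profile of the 10 genes were ZIC5, SLC7A6, DNAJC2, FEN1 and PRPF4, with root mean square differences of 0.0084 to 0.039 on the log2 scale over 4 groups. With the median profile in place of the mean, 2 of these 5, SLC7A6 and PRPF4, were again among the closest.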
